A study of Drosophila melanogaster with 8 samples.

Results

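The proteasome genes of Drosophila melanogaster were followed through hearts of 2 ages and 2 crosses. The members are 33 of the 11982 genes that carried a gene symbol of their own on the arrays: 27 canonical subunits of the proteasome and 6 duplicated copies, Rpt3R, Rpn12R, Prosbeta4R1, Prosbeta2R2, Prosalpha4T1 and Prosalpha4T2. They were taken by symbol from a list of proteasome subunits, and each was measured by 1 probe set. Whole adult hearts were profiled on 8 Affymetrix arrays, 2 in each of 4 groups. The control groups came from the cross GMH5xyw and the FOXO groups from GMH5xFOXO, each at 1 week and at 5 weeks of age. All groups therefore share the GMH5 line, which drives transgenes in the heart, and they differ in the other parent, yw or the line carrying FOXO, a transcription factor held back by insulin signalling. The labels give all flies as female and all tissue as heart, freed by suction of fat and pericardial cells. They state neither the strength of the transgene nor whether replicate arrays hold different flies. The p-values therefore cover only the spread between these samples, and that spread may be technical.

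The proteasome is the large protease that degrades proteins tagged with ubiquitin. Its core is a barrel of rings of alpha and beta subunits, in which alpha subunits guard the entrance and some beta subunits cut. A regulatory particle caps the barrel: its base holds a ring of ATPases (Rpt) that unfold the substrate, with non-ATPase subunits (Rpn) that bind ubiquitin or serve as scaffold, and its lid holds the deubiquitinase Rpn11 and further Rpn subunits. In heart and other muscle this protease turns over worn and misfolded proteins, including those of the contractile apparatus. In Drosophila several subunits have duplicated copies that are known mainly from the male germ line, where the testis builds proteasomes with alternative subunits.

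The arrays had features that bear on the copies. Replicates correlated across probe sets at r = 0.995 to 0.997 in 3 groups and at r = 0.963 in FOXO 1 week. Array medians lay between 6.05 and 6.43 on the log2 signal scale, with the highest values, 6.40 and 6.43, on the FOXO 5 weeks arrays. The foxo probe set did not pass the test, with a log2 fold change in FOXO against control of -0.05 ± 0.17 (SE, limma adjusted p = 0.913) at 1 week and -0.15 ± 0.17 (adjusted p = 0.653) at 5 weeks. Markers of other cells were compared with the labels. The median log2 signal of 27 measured of 30 listed genes of late spermatogenesis was 9.04 and 8.98 in control 1 week, 5.28 and 4.80 in control 5 weeks, 5.00 and 6.32 in FOXO 1 week, while FOXO 5 weeks had 10.03 and 9.96. The 5 female-specific genes of fat body and oenocytes had medians of 6.18 to 6.75 on both control 1 week arrays and on FOXO 1 week replicate 2, and of 13.03 to 13.44 on the other arrays. The 3 arrays with low female-specific signal thus do not match the level of the other 5 although all carry the same label. Genes of the oocyte and nurse cells (16 of 20 measured) had a median of at most 4.99 on 7 arrays, but of 10.87 on replicate 1 of FOXO 1 week. The heart gene Hand was bright on every array, at 13.04 to 13.33, while the median of the 11 measured heart genes lay between 6.56 and 7.94. Unlike Hand, most heart genes were lower at 5 weeks. The median log2 fold change of the 11 with age was -0.59 in control, with 4 above 0, and -0.35 in FOXO, with 2 above 0.

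The canonical subunits were bright in every heart sample and none passed the test in any of the 5 comparisons made. Their mean log2 signal over the 8 arrays ran from 10.95 for Prosalpha4 to 13.26 for Prosbeta7, with a median of 12.52, against array medians near the middle of the scale. Signals of different probe sets do not rank the amounts of their transcripts, so these values show only that all 27 were well detected. The distance between a subunit's lowest and highest array ran from 0.13 to 0.71 on the log2 scale, with a median of 0.26, against a median of 0.80 over all tested probe sets. The most even were Prosbeta5, the subunit with chymotrypsin-like activity, at 0.13, and Prosbeta2, with trypsin-like activity, at 0.14. The widest were Prosalpha4, an alpha ring subunit, at 0.71, and Rpn1, the scaffold of the base that docks ubiquitin carriers, at 0.68. These 2 also had the lowest mean signals of the 27, at 10.95 and 11.30. The median of 12.52 lay above the 95th percentile of all probe sets on each array, 11.99 to 12.11. These ranges were not compared with those of equally bright probe sets, and the part of signal level in them was not tested.

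**Figure D1:**
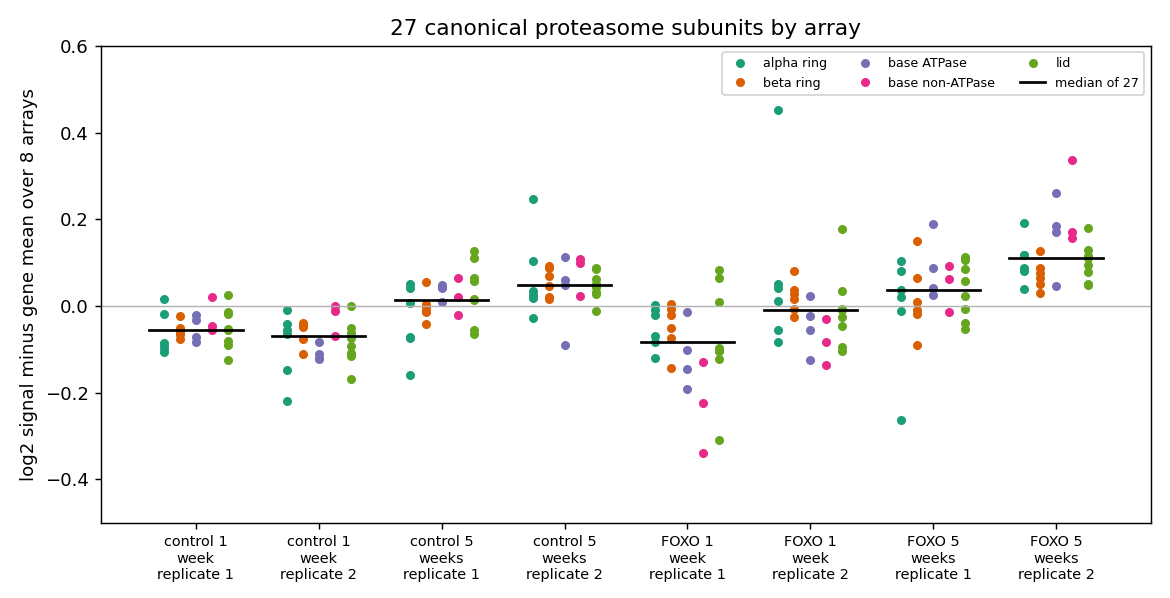
Deviation of each canonical subunit from its own mean over the 8 arrays, in log2 units, by array. The median deviation of the 27 subunits ran from -0.08 on FOXO 1 week replicate 1 to 0.11 on FOXO 5 weeks replicate 2, where all 27 lay above their mean.

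In FOXO against control hearts at 1 week, the change of the canonical subunits centred near 0. The median log2 fold change was 0.02, with 17 of 27 above 0, against a median of 0.04 over all tested probe sets. None of the 27 was called, also at an unadjusted p under 0.05, whereas 0.464% of all probe sets were called higher and 3.87% lower at a limma adjusted p under 0.05. The highest values were those of Prosalpha4 at 0.35 ± 0.24 (SE), of the small lid subunit Sem1 at 0.13 and of the beta ring subunit Prosbeta6 at 0.11. The lowest were those of Rpn1 at -0.18, of Rpn2, the other large scaffold of the base, at -0.14 and of the lid subunit Rpn3 at -0.07. By role, the 3 base non-ATPases were all below 0, with a median of -0.14, while the alpha ring, beta ring, ATPase and lid medians lay between 0.01 and 0.05. The groups did not overlap, with FOXO higher, for 8 of 27 subunits (29.6%), against 24.4% of all probe sets.

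At 5 weeks the canonical subunits again differed little between FOXO and control. The median log2 fold change was 0.04 with 22 of 27 above 0, but it was -0.33 with 0 of 27 above 0 when array medians were centred, and then 3 of 27 (Prosbeta5, Prosbeta7 and Rpn3) were called lower against 43.9% of all probe sets. As deposited, none of the 27 was called, and none at an unadjusted p under 0.05, against 7.35% of all probe sets called higher and 3.07% called lower. All tested probe sets had a median of -0.16 in the deposited values and of -0.52 after centring, since centring moves every probe set of an array by the same amount. The largest values in the deposited scale were those of Rpn1 at 0.16 and of the ATPases Rpt5 at 0.14 and Rpt2 at 0.12, and the lowest was that of Prosalpha4 at -0.12, followed by Prosbeta7 and Rpn3 at -0.02 each. FOXO was higher without overlap for 7 of 27 (25.9%), against 17.3% of all. Over the 27 subunits, the 95% confidence intervals of this difference reached from -0.69 to 0.55, the lower end being that of Prosalpha4 and the upper that of Rpn1. The change in the FOXO effect from 1 to 5 weeks was not called for any canonical subunit (none at an unadjusted p under 0.05 either). Its median was 0.05 as deposited and -0.45 after centring, when 8 of 27 were called lower (Prosalpha5, Prosbeta2, Prosbeta5, Prosbeta6, Prosbeta7, Rpn5, Rpn11 and Sem1) against 40.9% of all probe sets.

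With age, small positive values ran through nearly the whole canonical set in both crosses, without a call in either. In control hearts all 27 subunits had a higher mean at 5 weeks than at 1 week, with a median log2 fold change of 0.09. It was 0.25, again with 27 of 27 above 0, after centring of array medians. All tested probe sets had a median of 0.05 as deposited, with 57.5% above 0, and of 0.21 after centring. The fold changes of the subunits as deposited ran from 0.00 for Prosalpha7 and 0.01 for Prosalpha6, both of the alpha ring, and 0.03 for Rpn2 up to 0.16 for Prosalpha5, 0.21 for Prosalpha4 and 0.22 for Sem1. By role the medians were 0.14 for the 4 ATPases, 0.09 for the alpha ring and for the beta ring, 0.08 for the lid and 0.07 for the base non-ATPases. No subunit was called or had an unadjusted p under 0.05, against 2.34% of all probe sets called higher and 4.57% called lower. The arrays at 5 weeks lay above both arrays at 1 week for 18 of 27 subunits (66.7%), against 34.1% of all probe sets.

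In FOXO hearts 25 of 27 subunits had a higher mean at 5 weeks, with a median log2 fold change of 0.11, but this direction turned to a median of -0.23 with 1 of 27 above 0 when array medians were centred. All tested probe sets had a median of -0.15 here as deposited and of -0.49 after centring. No subunit was called, against 9.43% of all probe sets called higher and 5.82% called lower. The highest fold change was that of Rpn1, at 0.41 ± 0.16 (SE), with an unadjusted p of 0.0395 and a limma adjusted p of 0.137. Its log2 signal was 10.96 and 11.22 at 1 week and 11.36 and 11.64 at 5 weeks, so that the ages did not overlap. Without FOXO 1 week replicate 2 the fold change of Rpn1 was 0.54. That group then rested on replicate 1, where genes of the oocyte and nurse cells were high. Next came Rpn13, a ubiquitin receptor of the base, at 0.25 and Rpt2 at 0.23. The lowest were those of Prosalpha4 at -0.26, Prosbeta6 at -0.02 and Rpn11 at 0.01. By role the medians were 0.25 for the base non-ATPases, 0.22 for the ATPases, 0.11 for the lid, 0.10 for the alpha ring and 0.03 for the beta ring. The ages did not overlap, with 5 weeks higher, for 15 of 27 subunits (55.6%), against 19.9% of all.

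The age comparisons of the 2 crosses share no arrays, so their values can be set side by side. In control, however, female-specific genes had medians of 6.75 and 6.59 at 1 week and of 13.03 and 13.04 at 5 weeks. Age and this split of the arrays cannot be told apart there. In FOXO, replicate 2 at 1 week was also low, at 6.18. Late spermatogenesis genes differed between the ages too, falling in control and rising in FOXO. As deposited, 25 of 27 canonical subunits (92.6%) were above 0 in both, against 20.8% of all tested probe sets and 23.5% of the brightest 60%, but after centring at most 1 of 27 was above 0 in the FOXO cross. Both ages were apart in both crosses, with 5 weeks higher, for 11 of 27 subunits (40.7%), against 7.82% of all probe sets. The 11 were Prosalpha2, Prosalpha5, Prosbeta3, Prosbeta4, Rpn2, Rpn6, Rpn13, Sem1, Rpt2, Rpt3 and Rpt4, which cover all 5 roles. No test was made of these counts, and subunits measured on the same arrays are not independent of each other. The 27 also differed between replicates of 1 group. The median of replicate 2 minus replicate 1 was -0.02 in control 1 week and 0.04 in control 5 weeks, with 9 and 18 subunits above 0. In FOXO it was 0.08 at each age, with 18 above 0 at 1 week and 21 at 5 weeks. The muscle genes had values of the other sign: the median change of the 10 measured of 14 listed was -0.17 with age in control and -0.30 with age in FOXO. The log2 of their summed signal was 16.11 to 16.13 in control 1 week, 15.92 to 15.98 in control 5 weeks, 15.98 to 16.02 in FOXO 1 week and 15.73 to 15.80 in FOXO 5 weeks. The part of the tissue's make-up in the canonical values was not tested, and in bulk hearts fewer cells of a type and less RNA per cell cannot be told apart.

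**Figure D2:**
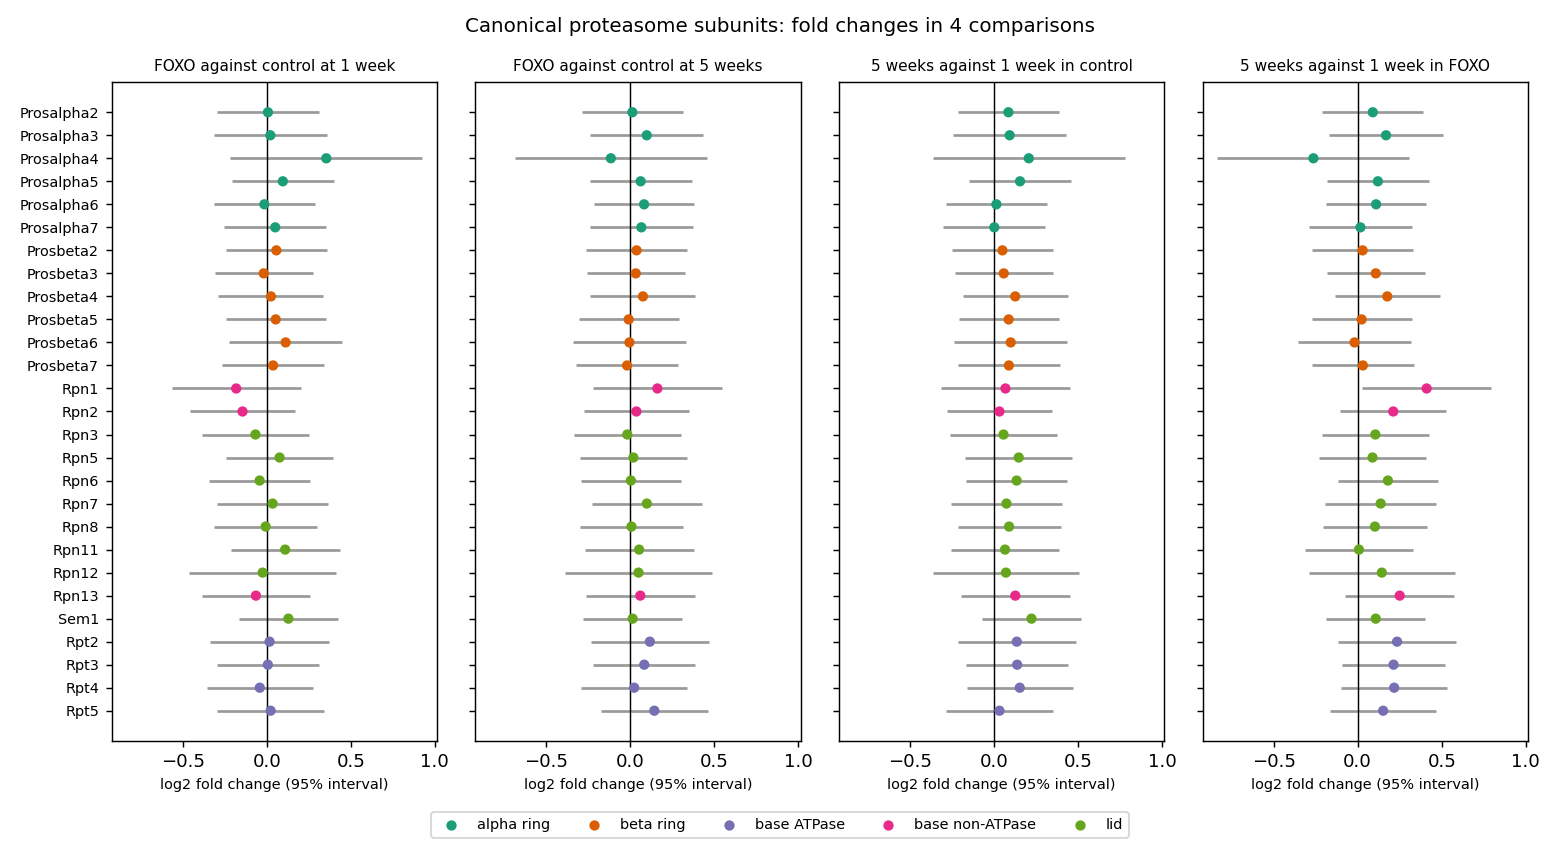
Log2 fold changes of the 27 canonical subunits in FOXO against control at each age and in 5 weeks against 1 week in each cross, by role, with 95% confidence intervals from limma. In control hearts all 27 points for age lie at or above 0, and none of the subunits passed the test in these comparisons.

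The copies behaved otherwise. All 6 were higher at 5 weeks than at 1 week in FOXO hearts, and 5 of them (Rpn12R, Prosbeta4R1, Prosbeta2R2, Prosalpha4T1 and Prosalpha4T2) were also higher in FOXO than in control hearts at 5 weeks, by 1.56 to 3.22 on the log2 scale. Several of these copies lay at the dim end of the scale in the other groups, where no level above background was shown, so their differences are those of the deposited values and not exact folds of the transcript. The sixth, Rpt3R, was lower in FOXO than in control at 5 weeks and rose with age in both crosses. At 1 week no copy passed the test between FOXO and control.

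Rpn12R, a copy of the lid subunit Rpn12, had a log2 signal of 3.99 and 4.09 in control 1 week, 3.48 and 3.29 in control 5 weeks, 3.19 and 3.44 in FOXO 1 week, while FOXO 5 weeks had 5.78 and 5.57. Only the FOXO 5 weeks arrays stood above the dim end of the scale, where the lower quartile of all probe sets was 4.07 to 4.18. FOXO exceeded control at 5 weeks by 2.30 ± 0.16 (SE; limma adjusted p = 8.29e-05), and 5 weeks exceeded 1 week in FOXO by 2.37 ± 0.16 (adjusted p = 8.16e-05). At 1 week the value ran the other way, at -0.73 ± 0.16, and did not pass (adjusted p = 0.0612), although the groups did not overlap. Without FOXO 1 week replicate 2 the value was -0.85, resting on replicate 1, where genes of the oocyte and nurse cells were high. With age in control it was -0.66 ± 0.16 (adjusted p = 0.0626), and 0.0150 without either FOXO 1 week array.

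Prosbeta4R1 is a copy of the beta ring subunit Prosbeta4. Its log2 signal was 3.79 and 3.82 in control 1 week, 3.26 and 3.20 in control 5 weeks, 3.28 and 3.56 in FOXO 1 week, while FOXO 5 weeks had 6.35 and 6.54. The 6 other arrays lay within the dimmest part of the scale and the FOXO 5 weeks arrays stood clear of them. FOXO exceeded control at 5 weeks by 3.22 ± 0.15 (adjusted p = 2.29e-05), and 5 weeks exceeded 1 week in FOXO by 3.03 ± 0.15 (adjusted p = 3.36e-05). With age in control it changed by -0.57 ± 0.15, which did not pass (adjusted p = 0.0840) but did without either FOXO 1 week array (adjusted p = 0.0170). At 1 week FOXO against control was -0.39 ± 0.15 (adjusted p = 0.291), and -0.53 without FOXO 1 week replicate 2, where again only replicate 1 stood for that group.

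Prosbeta2R2 is a copy of Prosbeta2. Its log2 signal was 5.64 and 5.38 in control 1 week, 5.40 and 4.93 in control 5 weeks, 5.80 and 5.09 in FOXO 1 week, while FOXO 5 weeks had 8.17 and 7.73. The 3 other groups overlapped each other and FOXO 5 weeks overlapped none. FOXO exceeded control at 5 weeks by 2.79 ± 0.29 (adjusted p = 0.000684), and 5 weeks exceeded 1 week in FOXO by 2.50 ± 0.29 (adjusted p = 0.00118).

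The alpha ring subunit Prosalpha4 has a pair of copies among the members. Prosalpha4T1 had a log2 signal of 3.46 and 3.68 in control 1 week, 3.52 and 3.62 in control 5 weeks, 3.52 and 3.65 in FOXO 1 week, while FOXO 5 weeks had 5.34 and 4.92. Prosalpha4T2 had 5.06 on each array of control 1 week, 4.88 and 4.69 in control 5 weeks, 4.74 and 4.93 in FOXO 1 week, while FOXO 5 weeks had 7.12 and 6.08. For each copy the FOXO 5 weeks arrays were the highest, and those of Prosalpha4T2 had an SD of 0.73 (n = 2) around 6.60. At 5 weeks FOXO exceeded control by 1.56 ± 0.18 for Prosalpha4T1 (adjusted p = 0.00117) and by 1.82 ± 0.31 for Prosalpha4T2 (adjusted p = 0.0098). The call of Prosalpha4T2 was lost without control 5 weeks replicate 1 (adjusted p = 0.0617) or replicate 2 (adjusted p = 0.0868). With age in FOXO the rises were 1.55 ± 0.18 (adjusted p = 0.00118) and 1.77 ± 0.31 (adjusted p = 0.00988). Prosalpha4 itself, at 10.69 and 11.07 in FOXO 5 weeks and 10.79 and 11.20 in control 5 weeks, differed by -0.12 ± 0.24 and was not called.

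Rpt3R, a copy of the ATPase Rpt3, followed age in both crosses. Its log2 signal was 5.66 and 5.48 in control 1 week, 8.16 and 8.10 in control 5 weeks, 5.82 and 5.35 in FOXO 1 week, while FOXO 5 weeks had 7.30 and 7.43. All 4 arrays at 5 weeks lay above all 4 at 1 week, and the control arrays at 5 weeks lay above the FOXO arrays at 5 weeks. It rose with age by 2.56 ± 0.19 in control, 5.92-fold (adjusted p = 0.000378), and by 1.78 ± 0.19 in FOXO, 3.43-fold (adjusted p = 0.00065). At 5 weeks FOXO was lower than control, at -0.77 ± 0.19 (adjusted p = 0.0449). That call was lost without any array of the 5 weeks groups or of control 1 week, with adjusted p-values from 0.0939 to 0.217. It was also lost with trend and robust in eBayes (0.0791), without the dimmest 40% of probe sets (0.0551) and with a replicate block (0.0536), in all under 9 of 18 alternatives. The 2 effects of FOXO, at 5 weeks and at 1 week, differed by -0.79 ± 0.26, which did not pass (adjusted p = 0.136), and by -1.02 without FOXO 1 week replicate 2. Its parent Rpt3 had log2 fold changes with age of 0.14 ± 0.13 in control and 0.21 ± 0.13 in FOXO as deposited, neither called.

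**Figure D3:**
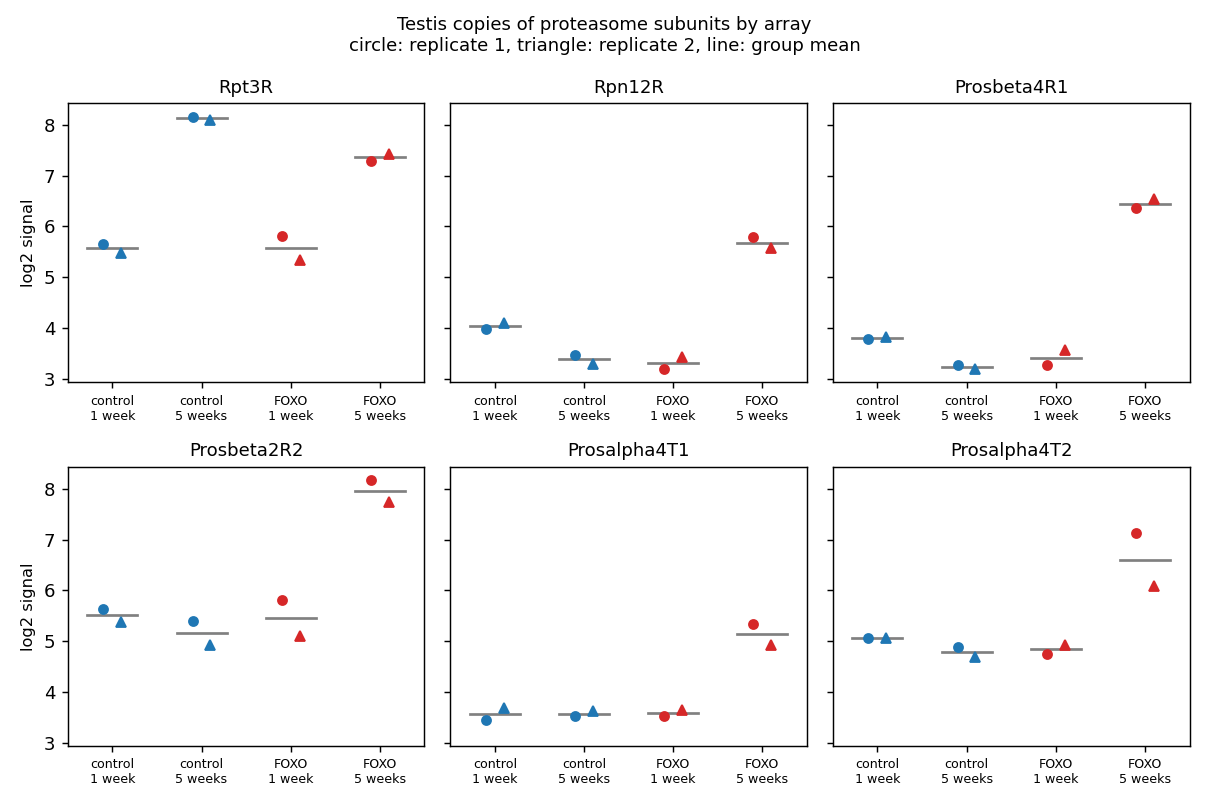
Log2 signal of the 6 copies on each array, 1 point per array, with the mean of the 2 arrays of each group. For 5 copies the FOXO 5 weeks points stand above all other groups, whereas Rpt3R is high in both groups at 5 weeks, at 8.10 to 8.16 in control and 7.30 to 7.43 in FOXO.

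The effect of FOXO on the copies was compared directly between the ages. It was larger at 5 weeks than at 1 week by 3.02 ± 0.23 (SE) for Rpn12R (limma adjusted p = 0.000116), 3.60 ± 0.22 for Prosbeta4R1 (adjusted p = 4.32e-05) and 2.85 ± 0.42 for Prosbeta2R2 (adjusted p = 0.00432). For Prosalpha4T1 it was larger by 1.55 ± 0.26 (adjusted p = 0.00853, and 0.0532 without control 1 week replicate 2) and for Prosalpha4T2 by 2.04 ± 0.44 (adjusted p = 0.0315). The last call was lost without any one of the 4 control arrays, at adjusted p-values up to 0.131. Thus 5 of 6 copies were called higher in this comparison, against 7.28% of all probe sets called higher and 2.13% called lower. The comparisons share arrays, above all those of FOXO 5 weeks, and are not independent of one another. At 5 weeks 5 of 6 copies were called higher in FOXO, against 7.35% of all probe sets, and 1 lower, against 3.07%. With age 6 of 6 were called higher in FOXO, against 9.43%, and 1 of 6 in control, against 2.34%.

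The markers of late spermatogenesis moved with the copies in part. At 5 weeks 7.35% of all probe sets were called higher in FOXO and 3.07% lower. In that comparison, where 5 copies were higher, 27 of 27 measured late spermatogenesis genes were also called higher. The log2 of their summed signal was 15.03 to 15.12 in FOXO 5 weeks, 10.55 to 10.59 in control 5 weeks, 10.81 to 11.73 in FOXO 1 week and 14.36 to 14.43 in control 1 week, and no value on this log2 scale was 0. On the control 1 week arrays, where these markers were also high, the highest value of Rpn12R was 4.09, of Prosbeta4R1 3.82, of Prosbeta2R2 5.64, of Prosalpha4T1 3.68 and of Prosalpha4T2 5.06. In control, 23 of 27 markers were called lower with age, against 4.57% of all probe sets, and 0 of the 6 copies were. An unadjusted p under 0.05 was seen for 3 copies: Rpt3R, which rose, and Rpn12R and Prosbeta4R1, which fell. The last 2, at the dim end of the scale, had -0.66 (limma adjusted p = 0.0626) and -0.57 (adjusted p = 0.0840). Both were called lower in the fit without the FOXO 1 week group. Between FOXO and control at 1 week, 23 of 27 markers were called lower in FOXO, against 3.87% of all probe sets, and 0 of 6 copies were (2 with an unadjusted p under 0.05). Rpt3R was at its highest in control 5 weeks, where the summed signal of late spermatogenesis markers was lowest. The regulators of spermatocytes (11 of 12 measured) had medians of 4.55 to 4.88 on all arrays, with 2 of 11 called higher in FOXO at 5 weeks and log2 summed signals of 8.79 to 8.86 in FOXO 5 weeks and 8.58 to 8.88 in the other groups. The Y-linked fertility genes (6 of 9 measured) reached medians of 3.42 and 3.68 in FOXO 5 weeks, against 2.82 to 3.02 elsewhere, with 2 of 6 called higher at 5 weeks and log2 summed signals of 6.26 to 6.31 against 5.46 to 5.64. Genes of the male accessory gland (14 of 16 measured) had their lowest medians, 3.85 and 3.96, in FOXO 5 weeks and their highest, 5.38 and 5.95, in control 1 week, and 0 of 14 were called at 5 weeks (3 with an unadjusted p under 0.05). The part of male germ-line tissue in the signal of the copies was not tested.

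**Figure D4:**
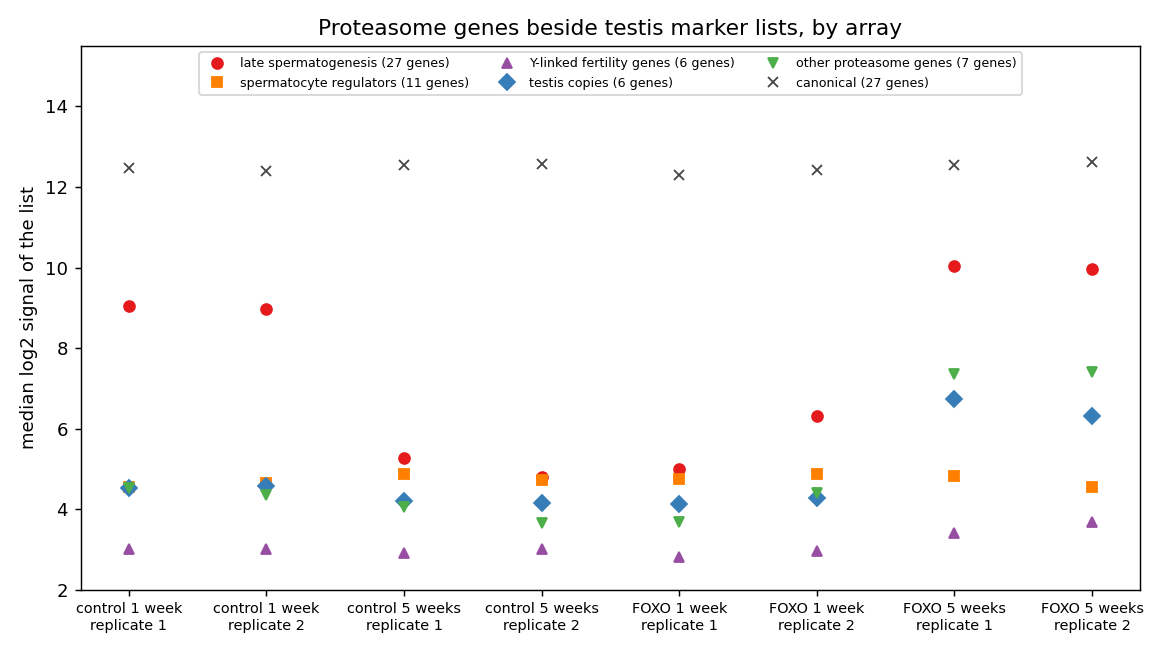
Median log2 signal on each of the 8 arrays for the canonical subunits, the 6 copies, 7 other copies and 3 lists of testis markers, 1 marker per list and array. The median of the 6 copies was 6.74 and 6.31 on the FOXO 5 weeks arrays and 4.13 to 4.57 on the others, while late spermatogenesis genes were high, at 8.98 to 10.03, in both control 1 week and FOXO 5 weeks.

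Further copies of proteasome subunits outside the 33 members were read for comparison. Of 15 other proteasome genes on a list, 7 had a probe set of their own, and 5 of these 7 were called higher in FOXO than in control at 5 weeks, the same 5 with age in FOXO and in the difference between the ages. The shares of all probe sets called higher in these comparisons were 7.35%, 9.43% and 7.28%. Prosalpha3T, a copy of Prosalpha3, had a log2 signal of 3.88 and 3.63 in control 1 week, 3.16 and 2.97 in control 5 weeks, 3.21 and 3.50 in FOXO 1 week, while FOXO 5 weeks had 7.61 and 7.43. Its difference at 5 weeks was 4.45 ± 0.17 (limma adjusted p = 1.79e-05), against control values below the lower quartile of all probe sets. Prosalpha6T, a copy of Prosalpha6, had 7.39 and 7.46 in FOXO 5 weeks and 3.56 to 4.54 elsewhere, with a difference of 3.74 at 5 weeks. For Prosbeta5R2 the FOXO 5 weeks values were 7.34 and 7.70, against 3.33 to 4.34 elsewhere, and the difference was 3.58. These 3 genes thus had the same split as most member copies, with FOXO 5 weeks apart from all other arrays.

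Prosbeta5R1, the other copy of Prosbeta5, had 5.21 and 5.44 in control 1 week, 4.05 and 4.03 in control 5 weeks, 3.85 and 4.40 in FOXO 1 week, while FOXO 5 weeks had 7.45 and 7.41. FOXO exceeded control at 5 weeks by 3.39 ± 0.20 (adjusted p = 4.28e-05). It was in addition lower in FOXO at 1 week, at -1.20 ± 0.20 (adjusted p = 0.0191), and fell with age in control, at -1.29 ± 0.20 (adjusted p = 0.0103). Those 2 calls were lost with some arrays left out: at 1 week the adjusted p was 0.0551 to 0.175 without any one control or FOXO 5 weeks array, and with age it was 0.0589 to 0.101 without any one control array. Prosbeta2R1 was higher by 0.84 ± 0.17 at 5 weeks (adjusted p = 0.0191), with 5.93 and 5.76 in FOXO 5 weeks against 4.88 and 5.12 in control 5 weeks, and lost this call without any one of these 4 arrays (adjusted p of 0.0540 to 0.140). Its calls with age in FOXO and in the difference between the ages were lost under 6 of 17 and 9 of 16 alternatives, with adjusted p-values up to 0.144 and 0.160. Prosbeta4R2, at 3.43 to 3.66, and Rpt4R, at 4.33 to 4.86, were not called in any comparison as deposited. After centring of array medians Prosbeta4R2 was called lower at 5 weeks (-0.45, limma adjusted p = 0.0365), with age in FOXO (-0.48) and in the change between the ages (-0.65). All tested probe sets then had medians of -0.52, -0.49 and -0.72. Of all probe sets, 43.9% were called lower at 5 weeks and 40.9% in the change between the ages. One more copy, Rpn13R, was added after its values were seen. Its log2 signal was 6.05 and 5.43 in control 1 week, 4.95 and 4.97 in control 5 weeks, 5.60 and 5.14 in FOXO 1 week, while FOXO 5 weeks had 7.49 and 7.66. The difference at 5 weeks was 2.61 ± 0.25 (adjusted p = 0.00036).

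**Figure D5:**
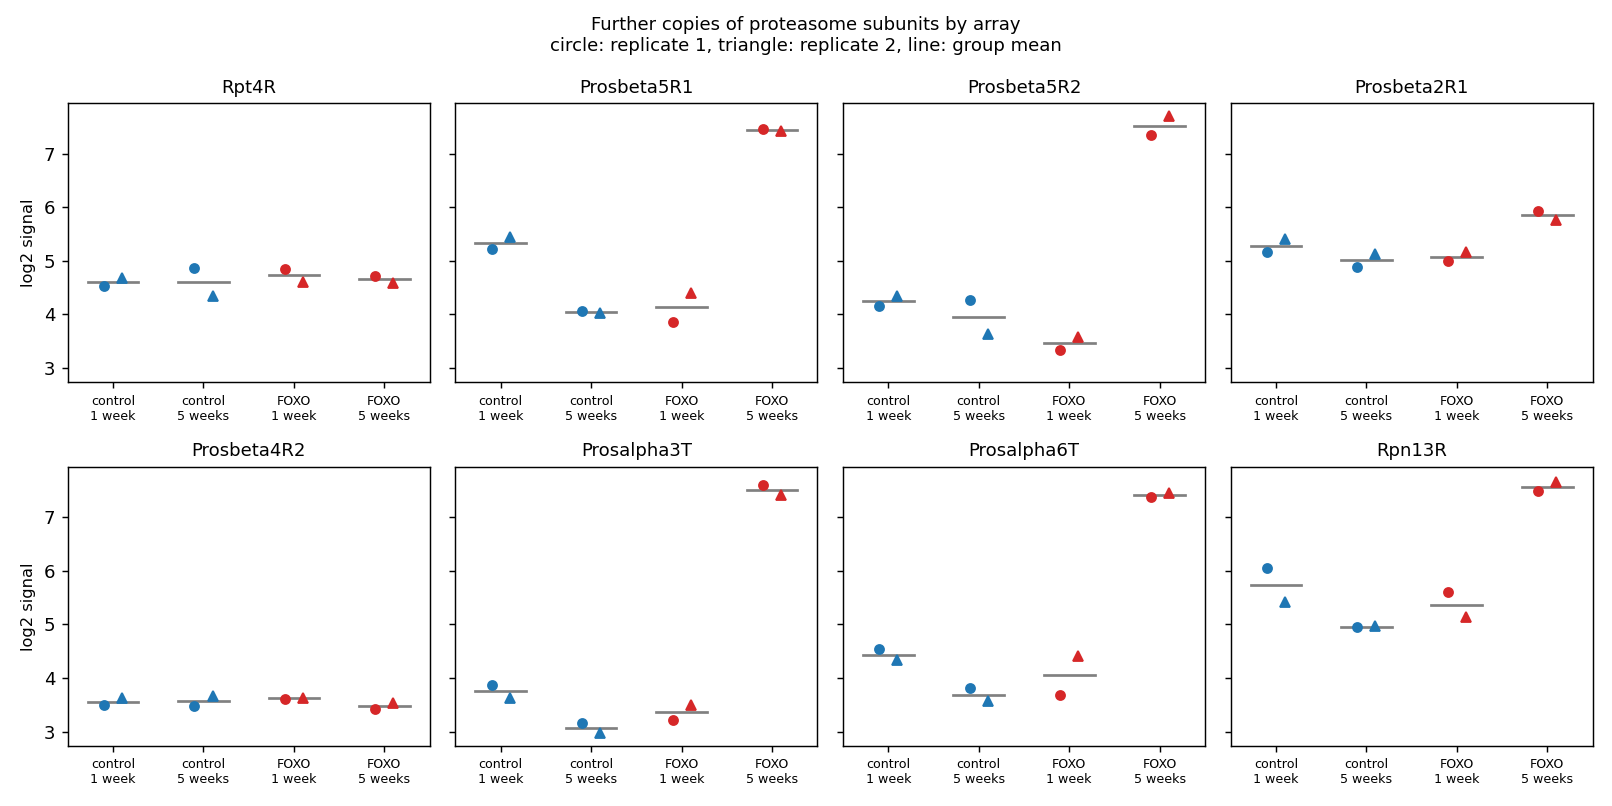
Log2 signal of the further copies on each array, with the mean of the 2 arrays of each group. Prosalpha3T, Prosalpha6T, Prosbeta5R1, Prosbeta5R2 and Rpn13R stand at 7.34 to 7.70 on the FOXO 5 weeks arrays, while Prosbeta4R2 and Rpt4R stay at 3.43 to 4.86 on all arrays.

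Genes next to the copies on the chromosome were read as well, after the values of the copies were known. Beside Rpt3R lie Tti1, at 7.19 to 8.08, and Alg12, at 10.75 to 11.41 over the 8 arrays, and neither stepped up at 5 weeks. The gene on 1 side of Rpn12R, CG32148, was at 8.42 and 8.36 in control 1 week, 3.38 and 3.87 in control 5 weeks, 4.14 and 4.93 in FOXO 1 week, while FOXO 5 weeks had 9.01 and 8.59. On the control 1 week arrays, where CG32148 was high, Rpn12R was dim, at 3.99 and 4.09. It was nonetheless higher there than in control 5 weeks and FOXO 1 week. The gene beside Prosbeta4R1, CG33125, was at 8.08 and 8.10 in control 1 week and 6.97 and 6.75 in FOXO 5 weeks, against 3.72 to 4.18 elsewhere. The odorant receptor gene Or23a lies between Prosbeta4R1 and Prosbeta4R2 and stayed at 2.52 to 2.80, flat like Prosbeta4R2. On the far side of Prosbeta4R2, Trf4 was at 6.01 and 6.26 in FOXO 5 weeks, against 4.11 to 4.63 elsewhere, and so was high on the same arrays as Prosbeta4R1. Beside Prosalpha4T2, Ssl likewise stood apart in FOXO 5 weeks, at 5.65 and 5.29 against 3.65 to 4.14 elsewhere. CG13581, on the other side of Prosalpha4T2, was at 6.34 and 6.45 in control 1 week and 7.57 and 7.34 in FOXO 5 weeks, against 4.71 to 5.47 elsewhere. CG1116, beside Prosbeta2R2, lay between 9.69 and 9.94, and ind, beside Rpn12R, between 3.37 and 3.74. The neighbours of Prosalpha4T1, CG31200 at 9.12 to 10.22 and Syp at 9.97 to 11.22, were not highest in FOXO 5 weeks.

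The proteins that assemble, regulate and supply the proteasome did not pass the test either. Of 24 listed genes for these functions, 20 were measured and 0 were called in any of the 5 comparisons by limma as deposited. The shares of all probe sets called, higher and lower, were 0.464% and 3.87% for FOXO at 1 week, 7.35% and 3.07% at 5 weeks, 2.34% and 4.57% with age in control, 9.43% and 5.82% with age in FOXO, and 7.28% and 2.13% in the difference. Some alternatives did make calls, for 9 of the 20 genes in all. After centring, Usp5, Keap1, rngo and Npl4 were called lower at 5 weeks, at -0.50 to -0.57, against 43.9% of all probe sets called lower. The median of all probe sets was then -0.52. With age in control rngo was called higher in fits without FOXO 1 week (0.47, adjusted p = 0.0266). Without FOXO 1 week replicate 2, which left replicate 1 alone in that group, FOXO against control at 1 week was 1.13 for REG and -0.67 for ntc. With age in FOXO that fit gave -1.03 for REG, 0.67 for Keap1, 0.68 for CG8858 and 0.93 for ntc. At an unadjusted p under 0.05 there were 0 of 20 in FOXO against control at 1 week, 1 at 5 weeks, 3 with age in control, 2 with age in FOXO and 0 in the difference between the ages. Their median log2 fold change with age was 0.11 in control, with 15 of 20 above 0, and 0.16 in FOXO, with 18 of 20 above 0 in the deposited scaling. All tested probe sets had 0.05 in control, with 57.5% above 0, and -0.15 in FOXO, with 35.8% above 0. After centring these 2 medians of all probe sets were 0.21 and -0.49, and the list of 20 was not summarised in that scaling. REG, the activator that binds the core in place of the regulatory particle, was at 11.81 on FOXO 1 week replicate 1 and at 10.63 to 10.94 on the other arrays. That array was also the one on which genes of the oocyte and nurse cells were high.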

How the data were processed

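Hearts of 4 groups were measured on 8 Affymetrix arrays, 2 per group, with groups taken from the titles in the labels. The authors deposited log2 values, 1 per probe set, already summarised and normalized. The unit was read from the values. The methods of both steps were not given in the sources used here. Limma is named, without a version, per the submitters' processing notes. Of 18952 probe sets, 183 array controls were left out and 18769 were tested. The platform annotation gave 1 symbol for 13647 of them, several for 402 and none for 4720. Of several probe sets for a gene, the one with the highest mean was used, although each of the 33 members had only 1.

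A model with 1 mean per group (limma 3.58.1 in R 4.3.3, lmFit and eBayes, two-sided, 4 residual degrees of freedom) gave 5 comparisons. FOXO was set against control separately at 1 week and at 5 weeks, the older against the younger hearts separately in control and in FOXO, and the FOXO effect at 5 weeks against that at 1 week. A probe set was called at a Benjamini-Hochberg adjusted p under 0.05 over all tested probe sets. Depth does not apply to arrays; their number limits the precision. The model assumes 1 spread for all groups, while replicates differed with an SD of 0.83 in FOXO 1 week and of 0.22 to 0.30 in the other groups, so errors may be too small in comparisons with FOXO 1 week and too large elsewhere. Short copies can share sequence with their parents: 1 of 6 copies (Rpn12R) and 4 of 27 canonical subunits had a probe set of the type that may match more than 1 gene. The fit was tested on simulated data.

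All members were named, with every array's value for the copies and for called canonical subunits, and with the 3 highest and 3 lowest canonical fold changes per comparison. Members, lists and tests were chosen with earlier results of these data known. Alternatives were an adjusted p under 0.1, a replicate block, arrayWeights, trend and robust in eBayes, quantile normalization, array medians centred, the dimmest 40% removed, 1 probe set per gene, fits on the compared groups' arrays alone, fits without FOXO 1 week, and each array left out. Correlations of the deviations of same-numbered arrays between groups were 0.0133 to 0.332. Genes next to the copies were those before and after them when the reference genes were ordered by chromosome and start. Overlapping or nested genes were not checked, and promoter motifs were not analysed here.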

Additional observations from a re-analysis of the deposited data

Results flagged for a closer look

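For 11 copies of proteasome subunits the FOXO effect differed between the ages by a test of the difference itself (limma, adjusted p under 0.05), always with the larger value at 5 weeks. They were 5 of the 6 member copies, 5 of the 7 others on the list and Rpn13R, which was added after its values were seen. Of all probe sets, 7.28% were called higher in this comparison and 2.13% lower. Among the members the difference, 5 weeks minus 1 week on the log2 scale, was 3.02 for Rpn12R, 3.60 for Prosbeta4R1, 2.85 for Prosbeta2R2, 1.55 for Prosalpha4T1 and 2.04 for Prosalpha4T2. Outside the members it was 4.59 for Prosbeta5R1, 4.37 for Prosbeta5R2, 1.05 for Prosbeta2R1, 4.84 for Prosalpha3T, 4.13 for Prosalpha6T and 2.98 for Rpn13R. The call was lost for Prosbeta2R1 under 9 of 16 alternatives (adjusted p up to 0.160), for Prosalpha4T2 under 5 of 16 (up to 0.131) and for Prosalpha4T1 under 1 of 15 (0.0532). No canonical subunit was among them. Groups of 2 arrays are too small for a check of single arrays that stand apart.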

How the results depend on the processing

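Of 2823 values of members under alternatives, 2771 kept their call, 19 lost a call, 33 gained one and 0 reversed a called direction. The calls of Rpn12R, Prosbeta4R1, Prosbeta2R2 and Prosalpha4T1 in FOXO against control at 5 weeks held under each alternative that kept them in the test; leaving out the dimmest 40% removes Rpn12R, Prosbeta4R1 and Prosalpha4T1 from the test.

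Canonical counts were 0 throughout, except after centring (3 at 5 weeks, 8 in the difference) and for Rpn1 with age in FOXO, where leaving out arrays gave 0 to 1. Copies called at 1 week were 1 instead of 0 with quantile normalization, with trend and robust and at an adjusted p under 0.1, and 0 to 2 with arrays left out. At 5 weeks they were 2 instead of 6 without the dimmest 40% and 4 to 6 with arrays left out. With age in control they were 2 instead of 1 with quantile normalization or trend and robust, and 3 with arrayWeights, at an adjusted p under 0.1, with only the compared arrays or without the FOXO 1 week group (1 to 3 with arrays left out). With age in FOXO they were 3 instead of 6 without the dimmest 40% (6 with any array left out), and in the difference 2 instead of 5 (3 to 6 with arrays left out). Prosalpha4T2 with age in FOXO was not called with arrayWeights (adjusted p = 0.0515) or only the compared arrays (0.0892), nor in the difference with quantile normalization (0.0537). It is among the copies counted without the dimmest 40% in these comparisons and at 5 weeks. It passed that filter only through FOXO 5 weeks, where it is high, so those counts do not speak for it. Rpt3R in the difference was -1.29 (adjusted p = 0.0125) after centring.

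Over all probe sets, FOXO against control at 1 week gave 813 calls, 274 with only the compared arrays and 400 to 5377 with arrays left out. At 5 weeks it gave 1956, against 9573 after centring, 1152 without the dimmest 40%, 3342 with arrayWeights, 3380 with only the compared arrays, 4278 without the FOXO 1 week group and 1368 to 4278 with arrays left out. Age in control gave 1297, against 3681 with arrayWeights, 3627 with only the compared arrays, 3279 without the FOXO 1 week group and 605 to 3279 with arrays left out. Age in FOXO gave 2861, against 9415 after centring, 1865 without the dimmest 40%, 1755 with arrayWeights, 4409 at an adjusted p under 0.1, 1421 with only the compared arrays and 1670 to 6698 with arrays left out. The difference gave 1766, against 8997 after centring, 1082 without the dimmest 40% and 1322 to 5541 with arrays left out. The filter and the left-out arrays change how many probe sets or arrays are tested; for the other alternatives the cause was not tested.

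Not every correlation of same-numbered arrays was over 0.1, so the numbers were not taken to pair the arrays. The replicate block gave 743, 1898, 1229, 2735 and 1685 calls in the 5 comparisons and 5 copies instead of 6 at 5 weeks, where Rpt3R had an adjusted p of 0.0536; it changed no other call of a member. The planned choice of the probe set with the lowest mean was not run, since each member has a lone probe set. Signal near background limits Rpn12R, Prosbeta4R1 and Prosalpha4T1, whose means lay below 5.16, the level under which the dimmest 40% were left out. Prosalpha4T2 passed that level only through FOXO 5 weeks, and Prosalpha3T, Prosalpha6T and Prosbeta5R2 were as dim outside it. Prosbeta5R1 and Prosbeta2R1 also passed it only through FOXO 5 weeks, since their means over the other arrays lay below it.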
